A study of Sus scrofa with 2 samples.

Results

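The genes described here are nuclear genes that encode subunits of the mitochondrial respiratory chain and ATP synthase. They were chosen by gene symbol, with earlier results of these data known. The symbols were those of subunits of complex I (NDUFA, NDUFB, NDUFC, NDUFS and NDUFV), complex III (UQCR and CYC1), complex IV (COX4 to COX8) and complex V (ATP5), with cytochrome c (CYCS). Assembly factors, ATP5IF1 and genes of the mitochondrial genome were left out. Of 69 such symbols in the table of pig gene names, 39 were matched to 1 entry each among the 27987 entries of the deposited table. These were 21 genes of complex I, 6 of complex III, 6 of complex IV, 5 of complex V and CYCS. The other 30, among them CYC1, NDUFS3, NDUFS8, NDUFV2, ATP5F1C and the muscle forms COX6A2 and COX7A1, are not analysed here.

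The muscle was the longissimus dorsi, along the back, of crossbred barrows (castrated male pigs) from Duroc sires and Yorkshire-Landrace dams, labelled DLY. The control group was kept at a constant 22 °C and the heat group (labelled H30) at a constant 30 °C, each for 21 days and with 8 pigs per group. The 16 pigs came from 8 litters and weighed 79.0 ± 1.5 kg at selection. Each group has 1 library, and the sources used here do not say whether it holds RNA of 1 pig or of several.

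With 1 library per group no test across pigs can be made, no difference below has a replicate check, and temperature, pig, handling and library cannot be told apart. In whole tissue, fewer cells of a type and less RNA per cell cannot be told apart either. Levels are in RPKM, reads scaled to gene length and library total, as the authors deposited them. Genes are given by symbol and Ensembl identifier, without positions in the genome. Whole reads behind each value were recovered from the decimals of the table, with library totals of 23608242 (control) and 22863584 (heat) reads. The interval given with a ratio of RPKM is a 95% Clopper-Pearson interval from these reads. It covers counting error only. PCR copies without molecular identifiers are not independent molecules, so it can also be too narrow for that error. Fast muscle markers were abundant in both, with MYL11, a fast light chain of myosin, at 23031 RPKM at 22 °C and 21673 at 30 °C.

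As background, complex I takes electrons from NADH and passes them to ubiquinone, complex III hands them from ubiquinol to cytochrome c, and complex IV passes them on to oxygen. The protons these complexes move across the inner mitochondrial membrane drive ATP synthase, complex V. Oxidative muscle fibres hold more mitochondria than glycolytic ones, and most subunits of the complexes are encoded in the nucleus and imported. The study's comparison asked how constant heat changed the muscle transcriptome.

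As deposited, the median log2 ratio of heat to control of the nuclear respiratory chain genes was slightly below 0 in all 4 complexes. When rescaled without the 10 highest entries, the medians of complexes I and IV came to -0.002 and -0.007, near 0. The median of all entries was then 0.09. Of the 38 genes whose mean RPKM reached 1, 30 (78.9%) had a log2 ratio of heat to control below 0, where the same held for 41.2% of all 13191 entries that passed this filter. The differences were small, with a median log2 ratio of -0.07 against 0.05 for all entries, each taken as log2((heat RPKM + 1)/(control RPKM + 1)). The lowest gene was NDUFA2 (-0.36) and the highest UQCRC2 (0.28). None of the 38 was 1.5-fold apart in either direction, a size that 5.81% of all entries and 2.08% of those with a mean of 50 RPKM or more reached. NDUFA4L2, at 0.594 RPKM at 22 °C and 0.397 at 30 °C (17 and 11 reads), did not pass the filter.

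As deposited and at a 1.1-fold cut, few members were higher, while the share of lower members was near the background. By counting interval the share of lower members, 42.1%, was above the 28.9% of abundant entries. At least 1.1-fold lower were 9 of 38 (23.7%), close to the 20.5% of all entries and the 17.5% of those with a mean of 50 RPKM or more. At least 1.1-fold higher were 2 of 38 (5.26%), namely UQCRC2 and NDUFA8, against 34.1% of all entries and 22.4% of the abundant ones. The split of 9 lower and 2 higher became 16 and 1 after centring on the median of all entries, with 27.1% and 26.3% of all entries past the same fold. It became 18 and 1 after trimmed mean rescaling (27.04% and 26.2%), and 6 and 4 after rescaling without the 10 highest entries (17.1% and 40.5%). The members' median was -0.12, -0.13 and -0.03 under these scalings, and that of all entries 0.00, -0.001 and 0.09.

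Respiratory chain genes are highly expressed, with a median level at percentile 96.4 of all entries in each library, so abundant entries are the closer background. Among the 1012 entries whose mean RPKM was 50 or more, the median log2 ratio was 0.01 and 47.8% were below 0. Of the 32 members at that level, 25 were below 0, with a median of -0.08. Among these entries, those with a recovered length under 1000 bp had a median of -0.02 and those of at least 1000 bp one of 0.03. Recovered length is the smallest that gives whole reads and can be a divisor of the true length, so some genes can be misplaced. Across the 38 members the log2 ratio had a Spearman rho of -0.01 with the mean level and of 0.11 with recovered length, both given as a description of genes that share the same 2 libraries.

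**Figure D1:**
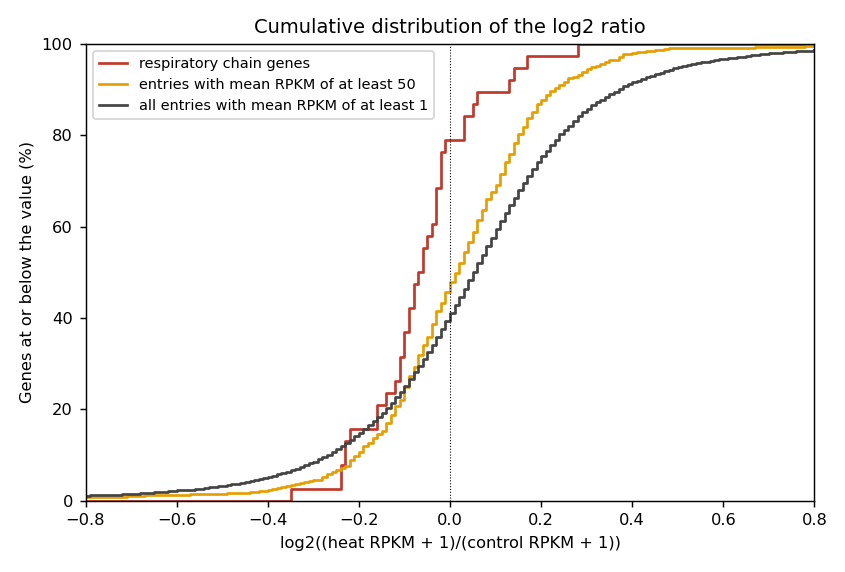
Cumulative share of genes (y axis, percent) at or below each log2((heat RPKM + 1)/(control RPKM + 1)) (x axis) for the 38 respiratory chain genes, the 1012 entries of 50 RPKM or more on average and all 13191 entries. At 0 the respiratory chain curve has reached 78.9%, where the others stand at 47.8% and 41.2%.

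The spread among members was narrower than among other genes. The central 80% of members lay between -0.23 and 0.08, against -0.21 and 0.23 for abundant entries and -0.27 and 0.37 for all entries. The members rested on 185 to 12697 reads each. The ratio's counting interval was wholly below 1 for 16 of 38 (42.1%) and above 1 for 4 (10.5%). Among all entries these shares were 10.6% and 20.6%, and among abundant entries, which rest on more reads, 28.9% and 35.2%. For the other 18 members the interval held 1, so that a difference was not separated from counting error. They include well covered genes with ratios near 1, such as NDUFA4 (7027 and 6691 reads, ratio 0.983).

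**Figure D2:**
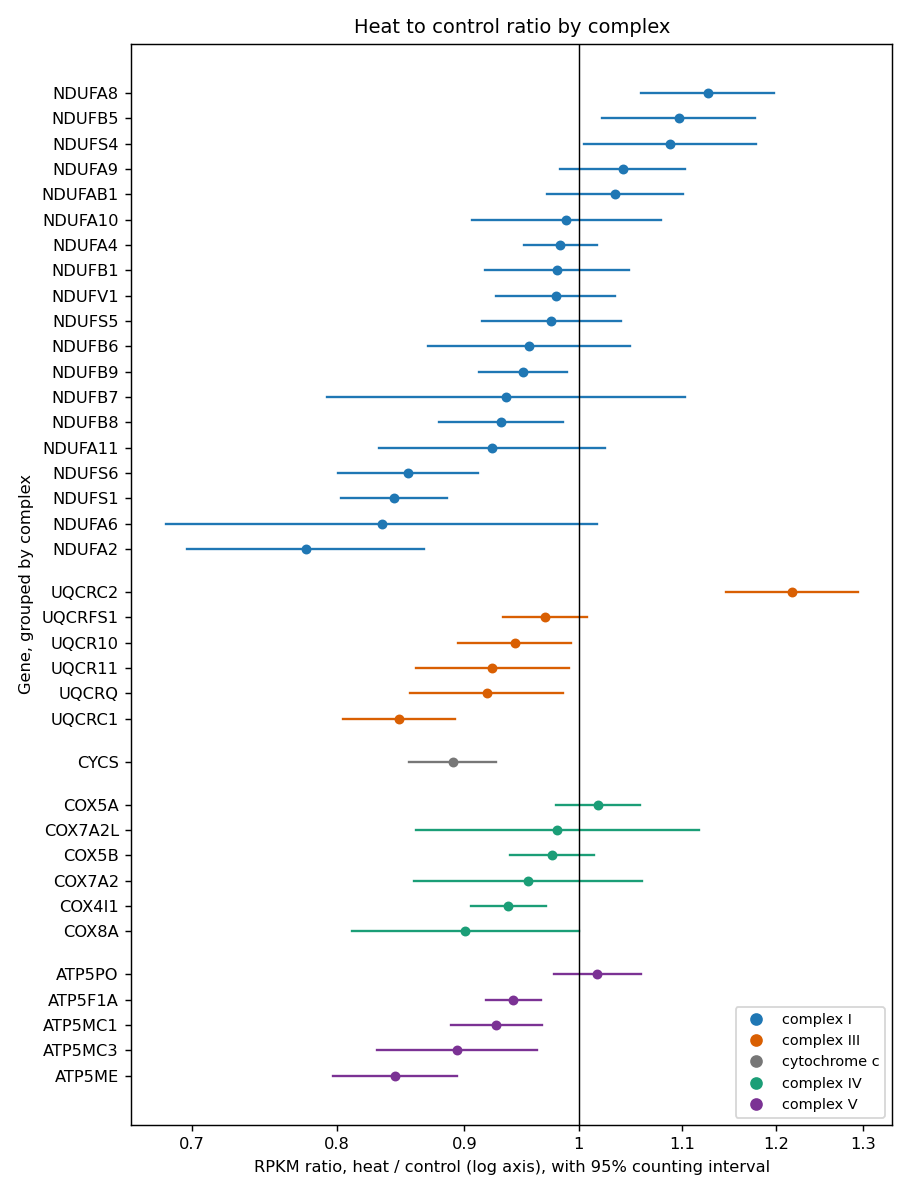
RPKM ratio of heat to control on a log axis (x) for the genes that passed the filter and are given singly, grouped by complex (y); dots are the ratios and bars the 95% counting intervals, with no replicate error. UQCRC2, NDUFA8, NDUFB5 and NDUFS4 have intervals above 1, and 16 genes have intervals below 1.

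In complex I, 15 of the 20 genes that passed were below 0, with a median log2 ratio of -0.05. For this and the other complexes, the background is 41.2% of all entries and 47.8% of abundant ones below 0. Intervals were below 1 for 10.6% and 28.9% of them. When rescaled without the 10 highest entries, 10 of the 20 were below 0, against 34.8% of all entries. The summed level of the 20, NDUFA4 included, was 2601 RPKM at 22 °C and 2527 at 30 °C, a ratio of 0.971. Core subunits carry the redox work of the matrix arm. NDUFS1 (ENSSSCG00000016127), the large iron-sulfur subunit that receives electrons from the flavin site, stood at 50.5 RPKM at 22 °C and 42.6 at 30 °C, a ratio of 0.844 (0.803 to 0.886). Its interval is well below 1 and rests on 3638 and 2972 reads. NDUFV1, which holds that flavin and binds NADH, was at 72.1 and 70.6 RPKM, a ratio of 0.979 (0.927 to 1.03) that turned direction when rescaled without the 10 highest entries. Of these, NDUFS1 was separated from 1 by its counting interval and NDUFV1 was not.

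The supernumerary subunits surround the core and are needed for assembly and stability. The lowest of them, NDUFA2 (ENSSSCG00000014371), a thioredoxin-like subunit of the NADH-oxidising module, stood at 121 RPKM at 22 °C and 93.8 at 30 °C, a ratio of 0.777 (0.697 to 0.867). NDUFS6, a zinc-binding subunit of the same module, was at 94.7 and 80.9 RPKM, a ratio of 0.854 (0.801 to 0.911). NDUFA6, a small LYR-motif subunit that docks the acyl carrier protein, was at 7.99 and 6.67 RPKM. It is the least abundant member that passed, and its ratio of 0.834 (0.683 to 1.02) rests on 229 and 185 reads.

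On the other side, NDUFA8 (ENSSSCG00000005528), a twin-CX9C subunit on the intermembrane face, was at 104 RPKM at 22 °C and 117 at 30 °C, a ratio of 1.13 (1.06 to 1.197). NDUFB5, of the membrane arm, was at 76.7 and 84.2 RPKM, a ratio of 1.097 (1.02 to 1.18). NDUFS4, a matrix-arm subunit that stabilises the NADH-oxidising module, was at 104.6 and 114 RPKM, a ratio of 1.09 (1.005 to 1.18). These are the 3 complex I genes whose intervals lay above 1. Subunits of the same NADH-oxidising module thus stood on both sides, with NDUFA2, NDUFS1 and NDUFS6 below 1 and NDUFS4 above. Within a library, the level of NDUFS1 relative to NDUFS4 was 0.483 in control and 0.374 in heat. This pair, like the pairs of UQCRC1 with UQCRC2 and NDUFA2 with NDUFA8 below, was picked after its values were seen.

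The remaining complex I genes lay between these. NDUFB8 (108 and 101 RPKM, ratio 0.931) and NDUFB9, a LYR-motif subunit (271 and 258 RPKM, ratio 0.9504), are membrane-arm subunits with intervals below 1. NDUFA11 (54.7 and 50.5 RPKM), NDUFB7 (122 and 114) and NDUFB6 (88.9 and 84.95) had ratios of 0.924, 0.935 and 0.955 with intervals that held 1. The interval of NDUFB7 (0.793 to 1.103) rests on the smallest whole reads that fit, 308 and 279 on 107 bp, and is too wide if the true length is a multiple of that.

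Log2 ratios of NDUFS5 (152.5 and 148.7 RPKM), NDUFB1 (244 and 239), NDUFA4 (599 and 589) and NDUFA10 (50.04 and 49.5) were -0.04, -0.03, -0.02 and -0.02. All 4 turned above 0 when rescaled without the 10 highest entries. NDUFAB1, the mitochondrial acyl carrier protein (114 and 118 RPKM, log2 ratio 0.05), and NDUFA9, of the ubiquinone module (78.7 and 81.9 RPKM, 0.06), turned below 0 after trimmed mean rescaling, and NDUFAB1 also after centring. NDUFA2 relative to NDUFA8 was at 1.16 in control and 0.801 in heat, so the order of these subunits was exchanged between the libraries.

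NDUFA4 (ENSSSCG00000024313), named for complex I but since found bound to complex IV, was the most abundant member in both libraries. Its levels of 599 and 589 RPKM rest on 7027 and 6691 reads, a ratio of 0.983 (0.951 to 1.02). Its hypoxia-induced paralogue NDUFA4L2 was below 1 RPKM in both. Counted with complex IV, NDUFA4 left the complex I median at -0.055 and made that of complex IV -0.035. From NDUFA4 to NDUFA6 the levels of the genes counted here in complex I spanned a ratio of 74.95 at 22 °C and 88.3 at 30 °C. The next most abundant of them, NDUFB9, was at 271 and 258 RPKM.

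**Figure D3:**
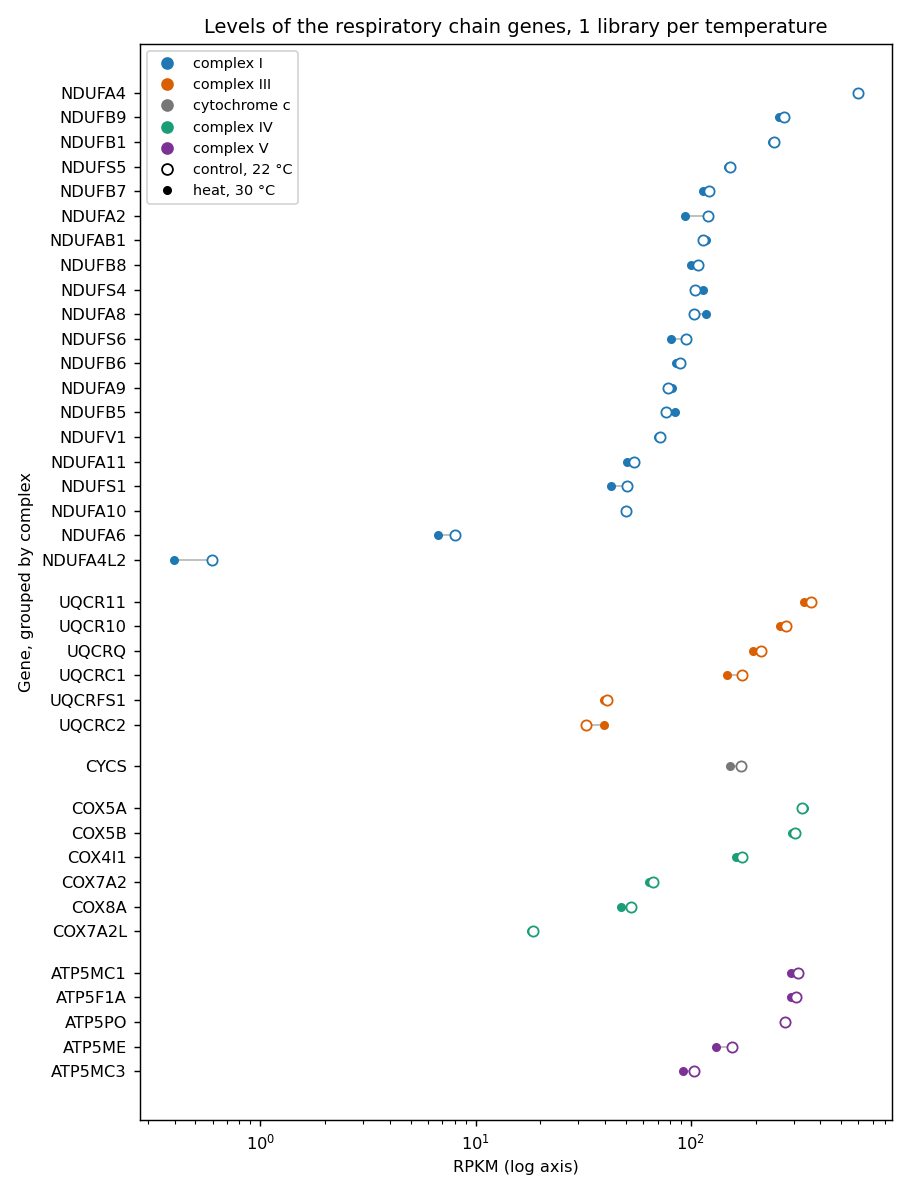
RPKM (x, log axis) of the genes given singly, grouped by complex and ordered by control level (y); open circles are the control library at 22 °C and filled dots the heat library at 30 °C. Levels run from below 1 RPKM for NDUFA4L2 to 599 and 589 RPKM for NDUFA4, and the shift between libraries is small beside the range between genes.

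In complex III, 5 of the 6 genes were below 0, with a median log2 ratio of -0.10 and a summed level of 1095 RPKM at 22 °C and 1014 at 30 °C (ratio 0.926). Its core proteins UQCRC1 and UQCRC2, related to processing peptidases and paired in the matrix part of the complex, went in opposite directions. UQCRC1 (ENSSSCG00000011356) was at 173 RPKM at 22 °C and 146 at 30 °C, a ratio of 0.848 (0.805 to 0.893). UQCRC2 (ENSSSCG00000007845) was at 32.6 and 39.7 RPKM, a ratio of 1.22 (1.15 to 1.29), the highest of all members. UQCRC1 was 5.30 times as abundant as UQCRC2 in control and 3.69 times in heat. The change in that level ratio was 0.696, with a 95% counting interval (normal approximation on the log scale) of 0.643 to 0.754.

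UQCRFS1, the Rieske iron-sulfur protein that passes electrons on from ubiquinol, was at 40.7 and 39.5 RPKM, a ratio of 0.9696 (0.933 to 1.01). The small subunits UQCRQ (211 and 194 RPKM, ratio 0.919), UQCR11 (362 and 334, ratio 0.923) and UQCR10 (276 and 260.1, ratio 0.943) all had intervals below 1. They were the 3 most abundant genes of the complex in both libraries. CYCS (ENSSSCG00000016714), the haem protein that carries electrons from complex III to complex IV, was at 170.5 and 152 RPKM, a ratio of 0.890 (0.855 to 0.927) on 5172 and 4459 reads.

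In complex IV, 5 of the 6 genes were below 0, with a median log2 ratio of -0.05, but 4 of the 6 intervals held 1, and 3 of 6 were below 0 when rescaled without the 10 highest entries. The summed level was 943 RPKM in control and 922 in heat (ratio 0.978). COX4I1 (ENSSSCG00000029034), the large regulatory subunit that binds ATP, stood at 173 RPKM at 22 °C and 162 at 30 °C, a ratio of 0.937 (0.905 to 0.9704). COX8A, a small subunit of the membrane part, was at 52.8 and 47.5 RPKM, a ratio of 0.901 with an interval that ends just under 1 (0.811 to 0.9999). These were the complex IV genes with an interval below 1.

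COX7A2, the form of its subunit also found in non-muscle tissues, was at 66.7 and 63.7 RPKM, a ratio of 0.955 (0.859 to 1.06). The most abundant pair, COX5A (329 and 335 RPKM) and the zinc-binding COX5B (303 and 296), had log2 ratios of 0.03 and -0.04. COX7A2L, which helps complexes III and IV associate into supercomplexes, was at 18.4 and 18.1 RPKM (-0.03). The direction of these last 3 turned under scaling, COX5A after centring and trimmed mean rescaling and the other two when rescaled without the 10 highest entries.

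In complex V, 5 of 12 listed genes were measured. Of these, 4 were below 0, and the median log2 ratio was -0.11. All 4 had intervals below 1, as had 28.9% of abundant entries. The summed level was 1155 RPKM in control and 1084 in heat (ratio 0.938). ATP5F1A (ENSSSCG00000004499), the alpha subunit of the catalytic head, stood at 309 RPKM at 22 °C and 291 at 30 °C. Its ratio of 0.942 (0.918 to 0.966) rests on the largest number of reads among the members, 12697 and 11578. ATP5MC1 (316 and 293 RPKM) and ATP5MC3 (103 and 92.1), whose products share the mature sequence of the proton-carrying c ring, had ratios of 0.927 (0.889 to 0.967) and 0.894 (0.831 to 0.962).

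ATP5ME (ENSSSCG00000023903), a membrane subunit at the interface of ATP synthase dimers, was the lowest of the complex, at 154.5 and 130.4 RPKM, a ratio of 0.844 (0.797 to 0.893). ATP5PO, the stalk protein that holds the catalytic head still, was at 273 and 278 RPKM, a ratio of 1.02 (0.978 to 1.06) whose log2 value turned below 0 after centring and trimmed mean rescaling. The 5 measured complex V genes spanned a narrower range of levels than those measured in the other complexes, from 103 to 316 RPKM in control and from 92.1 to 293 in heat. With 5 of 12 listed genes measured, that range can depend on which genes were matched.

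The order of the 38 genes by level was nearly the same in both libraries (Spearman rho 0.989 across genes, which are not independent). NDUFA4, UQCR11, COX5A, ATP5MC1 and ATP5F1A led in control, and NDUFA4, COX5A, UQCR11, COX5B and ATP5MC1 in heat. No gene moved by more than 4 places, and the 3 that moved by 4 were NDUFA2 and NDUFS6, downward, and NDUFA8, upward. Together the 38 genes took 0.833% of summed RPKM in control and 0.815% in heat.

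Other mitochondrial genes did not all stand where the nuclear subunits did. For complex II, which feeds electrons from succinate and is wholly nuclear, 3 of 4 genes were measured. SDHC, a membrane anchor, was at 78.5 and 63.1 RPKM (ratio 0.804, 0.764 to 0.847), SDHB, the iron-sulfur subunit, at 118 and 117, and SDHD, the other anchor, at 108 and 118 (ratio 1.096, 1.04 to 1.15). The 13 respiratory chain genes of the mitochondrial genome were all above 0 as deposited, with a median log2 ratio of 0.16, from ND4L at 1347 and 1350 RPKM to ATP8 at 1243 and 1531. Their intervals lay above 1 for 11 and held 1 for 2, and 4 of the 13 were below 0 after centring or trimmed mean rescaling. As deposited, 41.2% of all entries and 47.8% of abundant ones were below 0, and 20.6% and 35.2% had intervals above 1. The mitochondrial genes rest on up to 369652 reads, so small ratios were separated from 1 too, such as ATP6 at 1.03 (1.02 to 1.04). The 11 measured citrate cycle genes, whose enzymes supply the NADH, had a median of -0.01, with 8 below 0 (15 of 20 in complex I). That count was 9 after centring or trimmed mean rescaling and 5 when rescaled without the 10 highest entries. The citrate cycle genes ran from IDH3G (71.8 and 64.9 RPKM) to SUCLG2 (35.1 and 37.4). The medians of complex II (-0.02) and of the citrate cycle turned to 0.03 and 0.04 when rescaled without the 10 highest entries.

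**Figure D4:**
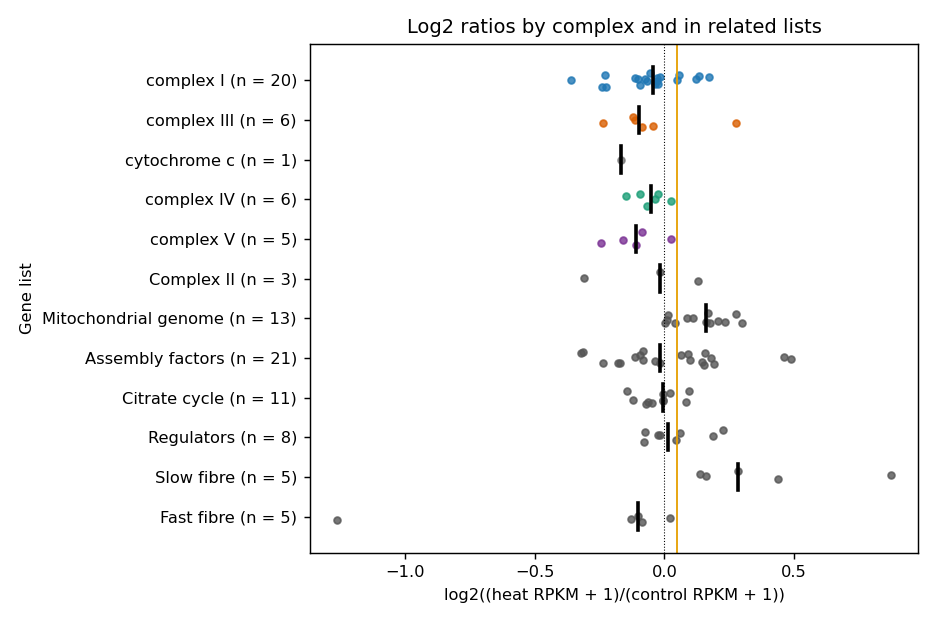
Log2((heat RPKM + 1)/(control RPKM + 1)) (x) of each measured gene (dots, spread vertically at random) by complex and in related lists (y); black bars are list medians, the dotted line is 0 and the orange line the median of all entries, 0.05. Medians of complexes I, III, IV and V lie from -0.11 to -0.05, that of the mitochondrial genome at 0.16 and that of slow fibre genes at 0.28.

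Fibre type and cell type markers also differed between these libraries, and their part in the respiratory chain result was not tested. For the counts that follow, 41.2% of all entries and 47.8% of abundant ones were below 0. The lists are short, so the counts are a description only. Of 9 listed slow fibre genes 5 were measured, all above 0, with a median of 0.28 and a summed level of 5505 RPKM in control and 6573 in heat. They ran from TNNI1, slow troponin I (1033 and 1136 RPKM), to CSRP3 (102 and 188). Of 10 fast fibre genes 5 were measured, 4 below 0, with a median of -0.10 and a summed level of 67754 and 64642 RPKM, from PVALB (226 and 93.7) to MYL1 (17607 and 17873). Fibroblast genes (5 of 6 measured, 4 below 0, median -0.14) summed to 901 and 817 RPKM, from PDGFRA (3.94 and 2.92) to DCN (186 and 190, log2 ratio 0.03), which turned below 0 after centring and trimmed mean rescaling. Adipocyte genes (3 of 7, 2 below 0) had a median of -0.53, with CIDEC at 7.56 and 3.48 RPKM (ratio 0.460, 0.361 to 0.583) and PLIN1 at 10.1 and 6.64 (0.661, 0.4501 to 0.962). Their sum, 51.3 and 49.8 RPKM, was mostly PLIN4 (33.7 and 39.6). Endothelial genes (3 of 5, 1 below 0, median 0.19) summed to 121 and 138 RPKM, from KDR (5.09 and 4.63) to TEK (5.37 and 6.67). Macrophage genes (4 of 5, 2 below 0, median 0.23) summed to 8.41 and 12.0 RPKM, from MRC1 (1.29 and 0.959) to LYZ (1.09 and 3.30). Of red blood cell genes only HBB passed the filter (89.04 and 112 RPKM). No matched marker was at 0, and the defining myosin heavy chains of either fibre type are not analysed here.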

How the data were processed

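Messenger RNA was measured in 2 libraries of pig muscle. Per the labels' protocols, 3 µg of RNA was selected by poly(A), random primed and amplified by 10 cycles of PCR. The deposited values are RPKM as the authors computed them. Bowtie, TopHat 1.4.0, Cufflinks 1.3.0 and the Sscrofa 10.2 build are named without a role, per the submitters' processing notes. Gene lengths, the counting tool and the treatment of reads with several matches are not given in the sources used here. Respiratory chain genes have processed pseudogenes, so reads could be shared and single genes, CYCS and the ATP5MC genes among them, are uncertain.

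The log2 ratio used a pseudocount of 1 and entries whose mean RPKM reached 1, and understates differences of low genes. Library totals were chosen so that reads and gene lengths came out whole. A length from 60 to 20000 bp then gave whole reads in both libraries for 21394 of 21398 entries above 0, within 1.7e-06 reads for the members. The smallest such reads were used, so intervals can be too wide on that account, while PCR copies can make them too narrow. The steps were tested on simulated reads (NumPy 2.4.6, SciPy 1.17.1, pandas 2.3.3). The symbols came from a table that named 11374 entries.

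The values of 1 member are not reported here by themselves, though group counts hold it. The members and lists were chosen with earlier results of these data known. Genes named are the 3 lowest and 3 highest of each complex, the most abundant, core subunits given here and isoform pairs, with the highest and lowest of each related list, and other members since the set is small.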

Additional observations from a re-analysis of the deposited data

How the results depend on the processing

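Pseudocounts, filters, scalings, summed entries, list means and the place of NDUFA4 were varied, and a filter at a mean of 50 RPKM was added after seeing the data. The medians over all members and over each of the 4 complexes kept their direction in the alternatives run on them. Under the scalings, added for the related lists after seeing the data, the medians of complex II, assembly factors, the citrate cycle and regulators and the median of all entries turned. The median over all members ranged from -0.13 to -0.03, and those of complexes I and IV came to -0.002 and -0.007 when rescaled without the 10 highest entries. Under that rescaling the median of all entries was 0.09. The 9 genes at least 1.1-fold lower became 16 when centred and 18 by the trimmed mean. The 2 at least 1.1-fold higher became 1 when centred, 1 by the trimmed mean, 4 without the 10 highest entries and 1 under the filter at 50 RPKM. The scalings shift all genes nearly alike, and the stricter filter leaves 32 members. Members below 0 numbered 23 to 34. No paired analysis was possible because there is a single library per temperature. Depth limits NDUFA6 and NDUFA4L2 most.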

Other observations

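Assembly factors build the complexes but are no part of them. The list used here also holds ATP5IF1, an inhibitor of ATP synthase, at 240 and 212 RPKM (ratio 0.882, 0.842 to 0.923). Of 45 listed genes 21 were measured, with 11 below 0. Their median log2 ratio of -0.02 turned to 0.01 when rescaled without the 10 highest entries. The lowest was TTC19, a complex III factor, at 4.39 RPKM at 22 °C and 3.31 at 30 °C, a ratio of 0.754 (0.623 to 0.911). The highest was COX16, a complex IV factor, at 4.05 and 6.08 RPKM, a ratio of 1.50 (1.102 to 2.05) on 73 and 106 reads. TMEM70, which helps assemble ATP synthase and is named here because of its values, was at 8.83 and 12.5 RPKM, a ratio of 1.42 (1.203 to 1.68). The intervals lay below 1 for 5 of the 21, ATP5IF1 among them, and above 1 for 2. Among all entries these shares were 10.6% and 20.6%.

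Of 14 genes listed as regulators of respiratory chain genes, 8 passed the filter. Their median log2 ratio of 0.01 turned to -0.035 after centring and -0.037 after trimmed mean rescaling. As deposited 4 were below 0, and every one of the 8 counting intervals held 1. Intervals also held 1 for 9071 of all 13191 entries. At a mean of 1 to 5 RPKM, where all but ESRRA lay, they held 1 for 5175 of 6775 entries. They ran from GABPB1, a subunit of the nuclear respiratory factor GABP (1.19 and 1.08 RPKM), to TFB1M, a mitochondrial ribosomal RNA methyltransferase (2.11 and 2.63). ESRRA, an oestrogen-related receptor and the most abundant of the 8, was at 29.8 and 30.8 RPKM, a ratio of 1.03 (0.956 to 1.12).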
